A study of Mus musculus with 25 samples.

Results

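The effect of a western diet on liver that had received no carcinogen was examined in 7 RNA sequencing libraries from male C57BL/6J mice, 1 library per liver sample. They are all libraries of the 25 in the series that the labels give as untreated liver: 3 from mice on the control diet (nonDEN L-CD) and 4 from mice on the western diet (nonDEN L-WD). Neither group was injected with diethylnitrosamine (DEN), the liver carcinogen that the other mice of the study received at 25 mg/kg by intraperitoneal injection at 2 weeks of age, so diet is the labelled difference between the 7 libraries. Diets began at weaning and the legend of the study design gives 36 weeks as the age at harvest. A legend in the supplement gives a range of ages at harvest that begins at 36 weeks. The western diet was richer in lipid and sucrose and the control diet rested on starch, and the methods name a different base formula for each, so fat, sugar and the rest of the formula changed together. The time of day at harvest and any fasting before it are not given in the sources used here. Each library was made from pulverized whole tissue, in which fewer cells of a type and less RNA per cell cannot be told apart. Nothing in the labels ties a replicate number to a litter or day. The p-values rest on 1 estimate of the spread per gene from all 25 libraries in 5 groups, tumors included. A wide spread within nonDEN L-CD enters that estimate only in part.

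Liver takes up fatty acids and sugars, stores the surplus as triglyceride in lipid droplets, exports it in lipoproteins and turns cholesterol into bile acids. Dietary cholesterol and sterol intermediates set the activity of transcription factors that act in opposite directions: one family drives cholesterol synthesis when sterols are scarce, and the oxysterol receptors drive bile acid synthesis and cholesterol export when sterols are plentiful. Hepatocytes also make the acute phase proteins, which are secreted into blood under the control of interleukin signals, and the metallothioneins, small proteins that bind zinc and copper. Western-type diets are widely used in mice to bring about fatty liver.

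Expected counts, which are RSEM's estimates of the reads that belong to each gene, were used throughout, and a normalized count is an expected count scaled to the effective library size. Values by library are given in the order of the replicate numbers, 1 to 3 for nonDEN L-CD and 1 to 4 for nonDEN L-WD. The 7 libraries held between 26570081 and 31120744 expected counts, and between 18642 and 19889 genes with at least 1 count. Mitochondrially encoded genes took 7.84% to 9.86% of the counts. *Gm42418*, a transcript known to overlap ribosomal RNA sequence, took 725476 normalized counts in nonDEN L-CD replicate 1 and at most 299349 in the other 6 libraries. Hepatocyte markers were abundant in every library, and 0 of 10 were called. *Alb*, which encodes albumin, ranged from 1283108 to 2256844 normalized counts.

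Several libraries held transcripts of neighbouring organs. Kidney genes, listed after their values were seen, summed to 24817 normalized counts in nonDEN L-WD replicate 1 and to between 3.09 and 10.7 in the other 6 libraries. Stomach genes, listed in the same way, summed to 3539 in nonDEN L-CD replicate 3 and 6051 in nonDEN L-WD replicate 4, against at most 76.1 elsewhere among the 7. The 26 pancreas markers summed to 51734, 237 and 19772 in nonDEN L-CD and 39462, 1591, 5252 and 70677 in nonDEN L-WD, with 20 of the 26 at 0 in nonDEN L-CD replicate 2 and 1 or 2 at 0 in each of the others. No pancreas marker was called. Skeletal muscle markers summed to 938, 19.6 and 19.5 in nonDEN L-CD and 652, 443, 1315 and 361 in nonDEN L-WD. The part of these transcripts in differences of other genes was not tested beyond leaving the libraries out.

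Single genes of bile acid synthesis, fatty acid uptake and lipid droplets were among those higher on the western diet, and genes of the acute phase, metal binding and protein folding among those lower. With thresholds of 0.05 on the adjusted p and 1 on the size of the log2 fold change, the edgeR quasi-likelihood test called 825 of 15625 tested genes, or 5.28%. Of these, 506 genes (3.24% of those tested) were higher and 319 genes (2.04%) were lower on the western diet. The median log2 fold change of all tested genes was 0.01. The groups did not overlap for 694 of the 825 called genes, while 30.8% of all tested genes had groups that did not overlap. Without the 3 libraries that held most transcripts of kidney, stomach or intestine, an alternative added after the data were seen, 568 genes were called, 362 higher and 206 lower. These were nonDEN L-CD replicate 3 and nonDEN L-WD replicates 1 and 4, called the 3 libraries with transcripts of other organs below. The fit kept nonDEN L-CD replicates 1 and 2 and nonDEN L-WD replicates 2 and 3. Pancreas markers summed to 51734, 237, 1591 and 5252 in the kept libraries, so it did not remove transcripts of other organs.

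**Figure D1:**
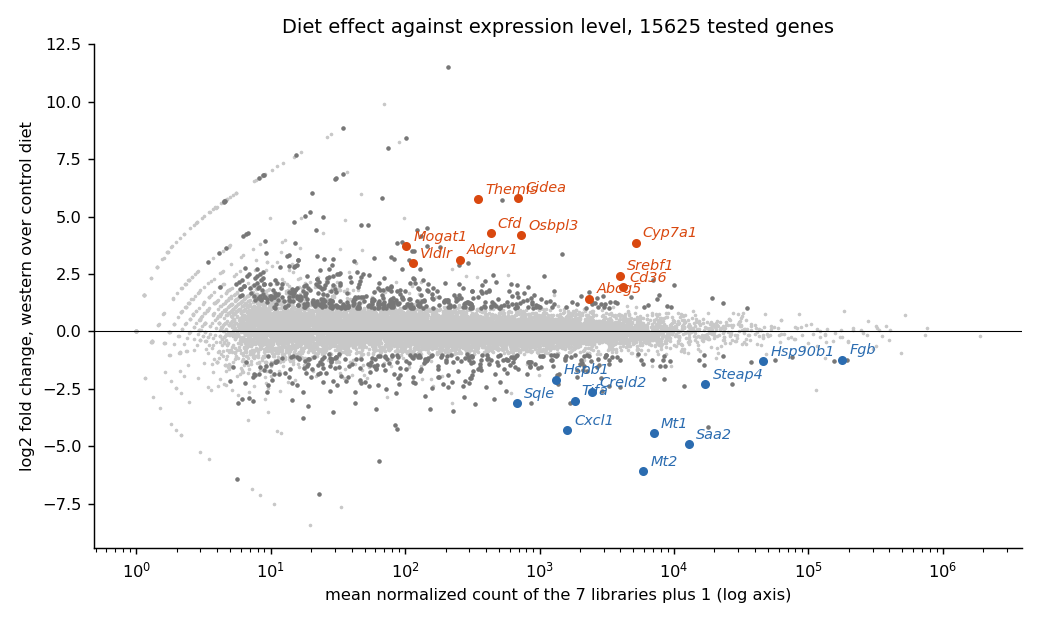
Log2 fold change of the western over the control diet (vertical axis) against the mean normalized count of the 7 libraries plus 1 (horizontal log axis), each point being 1 of 15625 tested genes. Dark grey points are the 825 called genes, and named genes are orange where higher and blue where lower on the western diet. Among the genes labelled in the plot, *Mt2* and *Saa2* fell furthest and lie at higher mean counts than *Cidea* and *Themis*, which rose furthest.

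The spread within the control diet group was uneven. Over all tested genes the median standard deviation of log2 CPM was 0.19 for nonDEN L-CD and 0.18 for the western diet, against 0.16 in the 4 libraries of DEN L-CD, the livers of DEN-injected mice on the control diet. Among genes lower on the western diet, the median standard deviation in nonDEN L-CD was 0.48, against 0.34 in nonDEN L-WD. Among genes that were higher, the medians were close, at 0.38 and 0.39. In 227 of these 319 genes, or 71.2%, it was nonDEN L-CD replicate 1 that lay nearest of the 3 control diet libraries to the western diet mean. The same library lay nearest in 255 of the 506 genes that were higher, or 50.4%. It lay inside the western diet range for 91 of the 825 called genes, compared with 35 for replicate 2 and 46 for replicate 3. These counts describe genes chosen by the difference between the same libraries.

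Leaving out single libraries moved the number of called genes in both directions. Without nonDEN L-CD replicate 1, 924 genes were called, 544 higher and 380 lower. Without replicate 2 the count was 507, with 285 higher and 222 lower, and without replicate 3 it was 630. When each nonDEN L-WD library was left out in turn, the counts were 652, 778, 675 and 959. Of the 825 genes, 356 were called in all 7 of these fits, 195 higher and 161 lower.

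**Figure D2:**
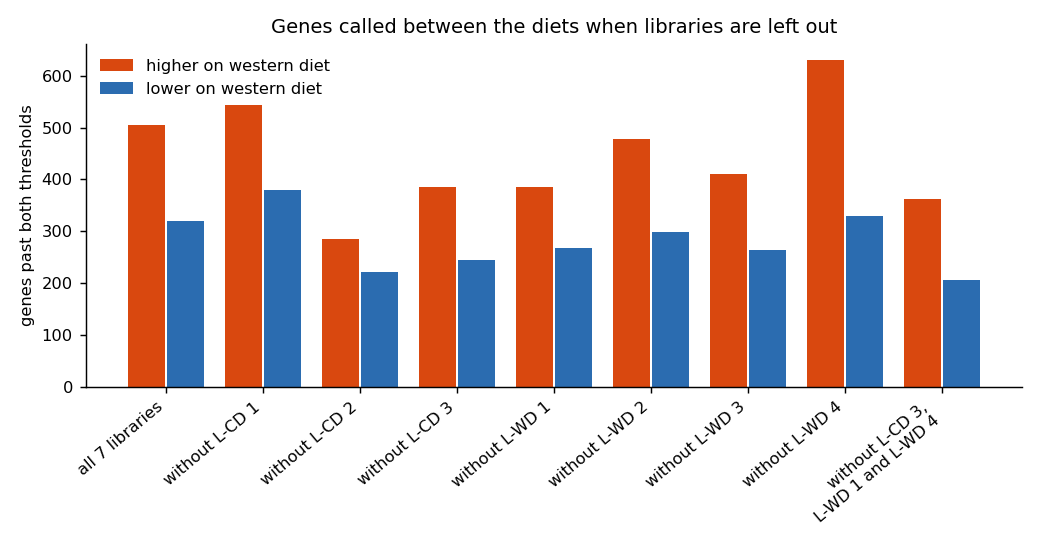
Number of genes past both thresholds (vertical axis), higher (orange) and lower (blue) on the western diet, with all 7 libraries, with each library left out and with 3 left out together. These 3 were nonDEN L-CD replicate 3 and nonDEN L-WD replicates 1 and 4, which held most transcripts of kidney, stomach or intestine. The fewest genes higher on the western diet, 285, were called without nonDEN L-CD replicate 2, and the most, 630, without nonDEN L-WD replicate 4.

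The rate-limiting gene of bile acid synthesis and both genes of the cholesterol export pump rose on the western diet. *Cyp7a1*, the rate-limiting enzyme of the classical bile acid pathway, had 953, 314 and 505 normalized counts in nonDEN L-CD and 12643, 5555, 8847 and 7444 in nonDEN L-WD. Every western diet library was above every control diet library, and the fold change was 14.6 (log2 fold change 3.87, SE 0.46, adjusted p = 6.6e-06). *Cyp7a1* lies on chromosome 4 from 6265612 to 6275633. The transporters *Abcg5* and *Abcg8*, which pair to pump cholesterol into bile, are neighbours on opposite strands and rose together. *Abcg5* went from 1304, 965 and 1325 to 3747, 2984, 3322 and 2761 (log2 fold change 1.42, SE 0.18, adjusted p = 1.3e-05), and *Abcg8* from 1745, 1065 and 1222 to 3907, 3090.4, 3455 and 2701 (log2 fold change 1.29, SE 0.20, adjusted p = 0.00012). For both genes the groups were separate, and both calls held with each library left out.

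Within the bile acid list, 3 of 22 tested members were higher, where 3.24% of all tested genes were, and 0 lower, with a median log2 fold change of 0.42. *Abcc3*, an exporter to the blood side of the hepatocyte, rose from 3886, 4394 and 3103 to 7826, 9299.6, 9795 and 6564 (log2 fold change 1.14, SE 0.28, adjusted p = 0.0055). *Slco1a4*, an organic anion uptake carrier, rose by 1.57 on the log2 scale (adjusted p = 0.027), a call that was lost without nonDEN L-CD replicate 1, nonDEN L-CD replicate 2 or nonDEN L-WD replicate 3. *Cyp8b1*, which directs synthesis toward cholic acid, stood at 5076, 2617 and 2249.8 on the control diet and 6262, 4315, 7012 and 5101 on the western diet with control diet replicate 1 inside the western diet range, and did not reach the fold threshold (log2 fold change 0.78, SE 0.28, adjusted p = 0.048), but was called without that library at 1.20. *Cyp27a1*, of the alternative pathway, had a log2 fold change of 0.00 (adjusted p = 0.99), and *Nr0b2*, a repressor of *Cyp7a1*, of 0.52 (adjusted p = 0.33). In the list of cholesterol efflux and esterification, 3 of 16 were higher, *Abcg5*, *Abcg8* and *Ces1d*, and 0 lower, with a median of 0.27. *Ces1d*, a carboxylesterase that hydrolyses stored lipid, rose from 6052, 7665 and 3670.3 to 11809.8, 12272, 15896 and 9047 (log2 fold change 1.08, SE 0.26, adjusted p = 0.0044), a call lost without nonDEN L-CD replicate 3 or nonDEN L-WD replicate 3.

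Cholesterol synthesis moved the other way, in part of the pathway. Of 25 tested members, 4 were lower, against 2.04% of all tested genes, and 0 higher, with a median log2 fold change of -0.37. *Sqle*, squalene epoxidase, fell from 889, 2006 and 1212 to 204, 83.2, 129.9 and 211 (log2 fold change -3.12, SE 0.61, adjusted p = 0.00097). *Idi1*, isopentenyl diphosphate isomerase, fell from 2552, 5242 and 2676 to 1044, 1134, 1193 and 941 (log2 fold change -1.70, SE 0.26, adjusted p = 1.0e-04). *Cyp51*, which demethylates lanosterol, fell by 1.25 on the log2 scale (adjusted p = 0.005), and *Fdps*, farnesyl diphosphate synthase, by 1.08 (adjusted p = 0.045). The groups did not overlap for any of the 4. The call of *Fdps* was lost without each library other than nonDEN L-WD replicate 2, and that of *Cyp51* without nonDEN L-CD replicate 2. *Hmgcs1*, an early enzyme of the pathway, had 1959, 3516 and 1613 counts on the control diet and 2698, 3328, 3068 and 1845 on the western diet, with overlapping groups, and was not called (log2 fold change 0.21, SE 0.34, adjusted p = 0.7).

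Of the called fatty acid uptake genes, more were higher than lower. In the list of uptake and activation, 6 of 19 were higher, 2 lower and 11 not called, where 3.24% of all tested genes were higher and 2.04% lower, with a median log2 fold change of 0.31. *Cd36*, the fatty acid translocase, rose from 1632, 1690.4 and 1469.7 to 5602, 6912, 6767 and 4975 (log2 fold change 1.93, SE 0.38, adjusted p = 0.00098). *Vldlr*, the receptor for very low density lipoprotein, rose from 35.1, 18.4 and 16.0 to 216, 231, 206 and 71.4 (log2 fold change 2.96, SE 0.60, adjusted p = 0.0013). *Lpl*, which releases fatty acids from circulating triglyceride, rose from 695, 473 and 664 to 1654, 1342, 1132 and 927 (log2 fold change 1.05, SE 0.28, adjusted p = 0.011), a call lost without nonDEN L-CD replicate 2 or nonDEN L-WD replicate 1. For these 3 genes each western diet library exceeded each control diet library. *Fabp2*, a fatty acid binding protein better known from intestine, rose by 1.24 on the log2 scale (adjusted p = 0.007), and *Acsm5*, a medium-chain acyl-CoA synthetase, by 1.20 (adjusted p = 0.00018). *Acsl4*, which activates arachidonic acid, fell from 2988, 6093 and 7115 to 2768, 2603, 2259 and 2459 (log2 fold change -1.10, SE 0.25, adjusted p = 0.0033), and the control diet value nearest to the western diet range was that of replicate 1, while the call was lost without replicate 3. *Fabp5*, the other lower member, overlapped between the groups (log2 fold change -1.60, SE 0.56, adjusted p = 0.043) and was called in 2 of the 7 fits with a library left out, those without nonDEN L-CD replicate 1 or nonDEN L-WD replicate 4. *Acsm2*, the remaining higher member, had 3632 counts in nonDEN L-WD replicate 1, the library with kidney transcripts, and at most 18.4 in the other 6, and was called neither without it, when its log2 fold change was -1.21, nor without any of the control diet libraries. Without the 3 libraries with transcripts of other organs, 3 members were higher and 1 lower, and *Acsl4*, *Acsm2*, *Fabp2* and *Lpl* were not called.

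Genes of lipid droplet proteins changed in both directions. *Cidea*, which promotes the fusion of lipid droplets, had 4.68, 52.9 and 5.73 normalized counts in nonDEN L-CD and 1116, 1044, 1888 and 755 in nonDEN L-WD. The western diet libraries lay more than an order of magnitude above the highest control diet library (log2 fold change 5.82, SE 1.12, adjusted p = 0.00089). *B430212C06Rik*, an RNA from the opposite strand that overlaps *Cidea*, had 0, 1.15 and 0 counts on the control diet and 127, 111, 196 and 79.9 on the western diet, at least 37.0-fold higher when each control diet library is set to 3 counts. The sources used here do not say if counting was by strand, so the overlapping part of the pair cannot be told apart. *Mogat1*, a monoacylglycerol acyltransferase, rose from 17.6, 16.1 and 4.58 to between 87.4 and 207 in the 4 western diet libraries (log2 fold change 3.70, SE 0.67, adjusted p = 0.00052). *Fitm1*, which helps to form lipid droplets, rose by 1.07 on the log2 scale (adjusted p = 0.0077), and its call was lost without nonDEN L-CD replicate 3 or nonDEN L-WD replicate 3. *Cidea*, *Cd36* and *Lpl* are also expressed by adipocytes, and the 6 adipocyte markers summed to 360.3, 611 and 476 in nonDEN L-CD and 1958, 1106, 1165 and 1262 in nonDEN L-WD, with 2 called higher (*Cfd* and *Lep*), against 3.24% of all tested genes, and a median log2 fold change of 2.07. Their part in the lipid results was not tested.

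The perilipin *Plin5*, which couples droplets to mitochondria, fell from 1469, 1616 and 1501 to 618, 674, 775 and 803 (log2 fold change -1.09, SE 0.19, adjusted p = 0.00029), with tight values in both groups. In the list of lipid droplets and lipolysis, 3 of 22 were thus higher, against 3.24% of all tested genes, and 1 lower, against 2.04%. *Plin2*, the main coat protein of droplets in hepatocytes, stood at 28652, 32270.1 and 21157 on the control diet and 13555, 17325, 19727 and 14676 on the western diet. Every western diet library was below every control diet library, and the gene was not called (log2 fold change -0.74, SE 0.34, adjusted p = 0.12). *Cidec*, a relative of *Cidea*, ranged from 228 to 1890.5 within nonDEN L-CD and was not called (log2 fold change 0.91, SE 0.49, adjusted p = 0.19), whereas without replicate 2 it was, at 1.93.

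*Srebf1*, whose product drives fatty acid synthesis genes, rose from 1344, 990.1 and 1038 to 7164, 7186, 6795 and 3042 (log2 fold change 2.43, SE 0.41, adjusted p = 0.00028). It was the only called member of the 17 of the fatty acid synthesis list, close to the 3.24% of all tested genes that were higher, and the list's median log2 fold change was 0.10. *Fasn*, fatty acid synthase, had 7283, 7433 and 5885 counts on the control diet and 8185, 16182, 9813 and 3251 on the western diet, and the western diet values lay on both sides of the control diet values (log2 fold change 0.45, SE 0.52, adjusted p = 0.57). *Scd1*, the desaturase, had 362609, 391846 and 405832 counts on the control diet. For this gene 3 of the 4 western diet libraries lay between 650572 and 750956, and replicate 4 at 367858 lay among the control diet libraries (log2 fold change 0.69, SE 0.49, adjusted p = 0.33). *Acaca* and *Elovl6* had log2 fold changes of -0.40 and -0.69 and were not called. In all 4 of *Srebf1*, *Fasn*, *Acaca* and *Elovl6*, nonDEN L-WD replicate 4 was the lowest western diet library.

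Among 32 genes of fatty acid oxidation and targets of PPAR alpha, the receptor that senses fatty acids in liver, 3 were higher and 1 lower, where 3.24% of all tested genes were higher and 2.04% lower. *Aldh3a2*, a fatty aldehyde dehydrogenase, rose from 11779.5, 10887 and 6144 to 22429.7, 31244, 28779.7 and 23591 (log2 fold change 1.47, SE 0.27, adjusted p = 0.00055). *Vnn1*, pantetheinase, rose from 1682, 1675 and 878 to 3339.7, 3842, 4347 and 4836 (log2 fold change 1.53, SE 0.31, adjusted p = 0.0011), and *Acaa1b*, a peroxisomal thiolase, by 1.25 on the log2 scale (adjusted p = 0.009), the latter not called without nonDEN L-CD replicate 3. About 39.6% of the 50-base words of *Acaa1b* occur in transcripts of other genes, mainly *Acaa1a*. *Angptl4*, a secreted inhibitor of lipoprotein lipase, fell from 6080.4, 4480.1 and 4526 to 2312, 1915, 2419.9 and 2638 (log2 fold change -1.12, SE 0.18, adjusted p = 0.0002). It was not called without nonDEN L-CD replicate 1, the highest control diet library. *Cpt1a*, which admits fatty acids to mitochondria, was not called, with a log2 fold change of 0.16 (adjusted p = 0.59).

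Cytochromes of drug metabolism and their regulators contributed 7 higher, against 3.24% of all tested genes, and 0 lower of 29 tested members, with a median log2 fold change of 0.89. *Cyp2c39* rose from 25.7, 24.1 and 13.8 to 95.6, 77.6, 165 and 83.1 (log2 fold change 2.31, SE 0.42, adjusted p = 0.00053) and *Cyp2c38* from 558, 707 and 364 to 1423, 2006, 2526 and 1396 (log2 fold change 1.76, SE 0.33, adjusted p = 0.00059). The groups did not overlap for either, nor for *Cyp3a59*, which rose by 1.54 on the log2 scale (adjusted p = 0.0035). *Nr1i3*, the xenobiotic receptor CAR, of whose words 63.6% occur in *Tomm40l*, which overlaps it on the opposite strand, stood at 3518, 1218 and 1463 on the control diet and 3891, 3759, 4791 and 4503 on the western diet. Replicate 1 of nonDEN L-CD was just below the western diet range, and the call (log2 fold change 1.04, SE 0.31, adjusted p = 0.018) was lost without nonDEN L-CD replicate 2, nonDEN L-CD replicate 3 or nonDEN L-WD replicate 3. *Cyp2a22* rose from 4.68, 10.3 and 14.9 to 82.9, 157, 248 and 85.2 (log2 fold change 3.83, SE 0.87, adjusted p = 0.0033), with 20.2% of its words shared with other genes. *Cyp2a4*, a testosterone hydroxylase that shares 38.8% of its words, mainly with *Cyp2a5*, had 420.4, 33.1, 8.24 and 0 counts on the western diet, most of them in the library with kidney transcripts, and was not called without that library or without any control diet library. *Cyp2a5* itself rose by 2.02 (adjusted p = 0.042) and was called in 1 of the 7 fits with a library left out, that without nonDEN L-WD replicate 4. *Cyp2e1*, which oxidises ethanol and fatty acids and was among the most abundant, stood at 138606, 107626 and 123227 on the control diet and 214398, 204607, 257305 and 240085 on the western diet, with separate groups, but stayed under the fold threshold (log2 fold change 0.90, SE 0.23, adjusted p = 0.0069).

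Beyond these lists, the largest increases were in genes of varied function. *Osbpl3*, a lipid-binding protein of the oxysterol-binding family, rose from 102, 59.8 and 39 to 1268, 1474, 1316 and 819 (log2 fold change 4.19, SE 0.33, adjusted p = 1.1e-07). *Esrrg*, an orphan nuclear receptor, rose from 19.9, 4.6 and 6.87 to 241, 118, 180.4 and 91.6 (log2 fold change 3.90, SE 0.71, adjusted p = 0.00054). *Lrtm1*, a leucine-rich repeat membrane protein, rose from 14.0, 2.30 and 20.6 to 272, 71.9, 305 and 231 (log2 fold change 4.14, SE 0.83, adjusted p = 0.0012). All 3 had separate groups, as did *Adgrv1*, a very large adhesion receptor, at 66.7, 35.6 and 39 on the control diet and 261, 681, 378 and 310.0 on the western diet (log2 fold change 3.11, SE 0.43, adjusted p = 3.4e-05). *Clec2h*, a C-type lectin, rose from 18.7, 8.05 and 12.6 to 144, 137, 119.6 and 102 (log2 fold change 3.25, SE 0.89, adjusted p = 0.011), a call lost without nonDEN L-CD replicate 2. *Cfd*, the complement protease known as adipsin, rose from 29.2, 46.0 and 36.7 to 1225, 256, 574 and 856 (log2 fold change 4.28, SE 0.87, adjusted p = 0.0013), and its highest value was in nonDEN L-WD replicate 1. *Lep*, leptin, also an adipocyte marker, was at 0 in all 3 control diet libraries and at 48.8, 27.4, 22.7 and 2.13 in nonDEN L-WD. The *Lep* call (adjusted p = 0.035) was lost without each library other than nonDEN L-WD replicate 4. The increases of *Dnase1* and *Gcnt1* rested on the library with kidney transcripts, with 777 and 642 counts there and at most 19.9 and 33.0 in the others, and neither was called without it. *Dnase1* was not called without any of the control diet libraries either.

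*Themis*, a regulator of T cell selection, was low on the control diet and high in all 4 western diet libraries. It stood at 9.36, 12.7 and 11.5 in nonDEN L-CD and 636, 664, 801 and 319.6 in nonDEN L-WD (log2 fold change 5.75, SE 0.68, adjusted p = 6.6e-06). It was 1 of 18 T cell markers, and the other 17 were not called, a share near the 3.24% of all tested genes that were higher. The T cell list had a median log2 fold change of 0.41.

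**Figure D3:**
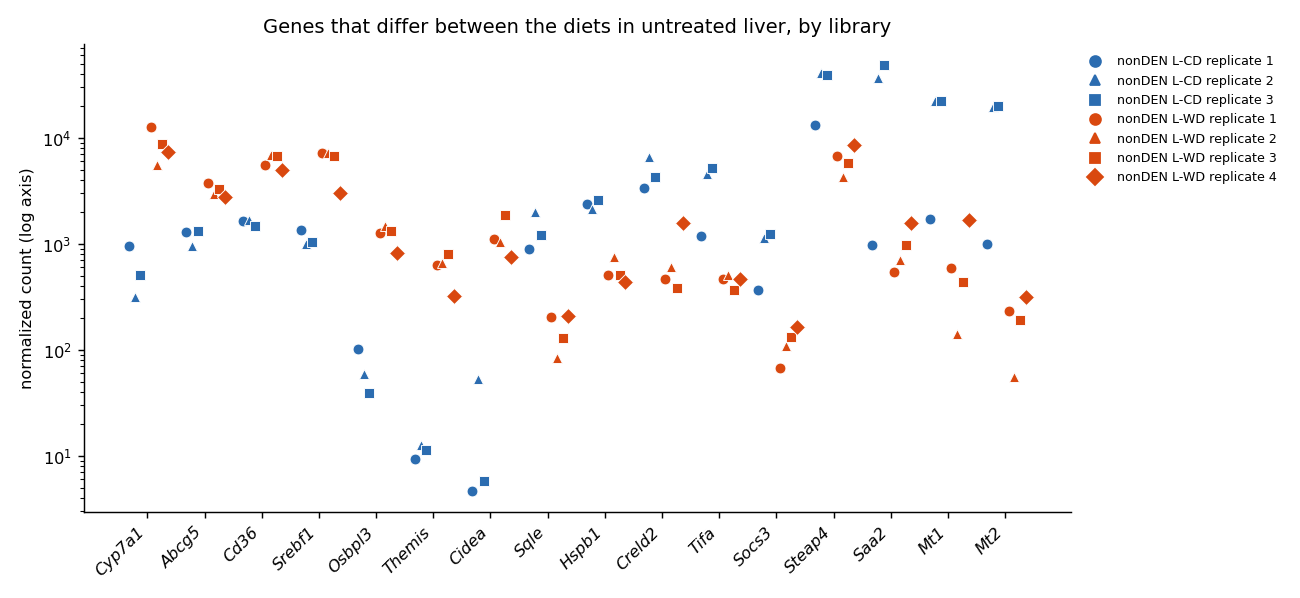
Normalized counts (vertical log axis) of 16 named genes in each of the 3 nonDEN L-CD libraries (blue) and the 4 nonDEN L-WD libraries (orange), with the marker shape giving the replicate number. For *Cd36*, *Srebf1*, *Themis* and *Hspb1* the 3 control diet libraries lie close together. For *Steap4*, *Saa2*, *Mt1* and *Mt2*, replicate 1 of the control diet lies well below the other two.

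Markers of lipid-associated macrophages, the cells that gather at lipid-laden hepatocytes, were higher in part of the western diet group. Of 14 tested, 5 were called higher, against 3.24% of all tested genes, and 0 lower, with a median log2 fold change of 0.60. *Mmp12*, macrophage elastase, rose from 11.7, 11.5 and 26.4 to 93.6, 342, 268 and 50.1 (log2 fold change 3.50, SE 0.65, adjusted p = 0.00063). *Trem2*, a lipid-sensing receptor, rose from 10.5, 4.6 and 12.6 to 20.5, 55.8, 41.2 and 17.1 (log2 fold change 1.85, SE 0.48, adjusted p = 0.0082), and *Gpnmb*, a lysosomal glycoprotein, from 11.7, 18.4 and 14.9 to 33.2, 366, 114 and 17.1 (log2 fold change 3.14, SE 0.89, adjusted p = 0.013). *Itgax* and *Cx3cr1* rose by 1.51 and 2.13 on the log2 scale (adjusted p = 0.0071 and 0.009). In each of the 5 genes, replicates 2 and 3 of nonDEN L-WD were the highest and replicates 1 and 4 lay closer to the control diet values. For *Gpnmb* and *Cx3cr1* replicate 4 lay inside the control diet range. Without nonDEN L-CD replicate 2 the called members were *Mmp12* and *Itgax*, and *Gpnmb* was also not called without nonDEN L-CD replicate 3 or nonDEN L-WD replicate 2. With the 7 untreated libraries alone in the fit, *Mmp12* and *Trem2* were called, and with voom *Gpnmb* and *Itgax* were not. The 12 Kupffer cell markers held 0 called genes, and *Clec4f*, their defining lectin, stood at 2459, 1554 and 1854 on the control diet and 1882, 1961, 1836 and 1944 on the western diet.

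Fibrillar collagens followed the same libraries. In the list of fibrosis and matrix, 4 of 22 were higher, against 3.24% of all tested genes, and 0 lower, with a median of 0.54. *Col3a1* rose from 592, 434 and 578 to 1177, 2033, 1664 and 738 (log2 fold change 1.39, SE 0.27, adjusted p = 0.00081), *Col1a1* by 1.26 (adjusted p = 0.011) and *Col1a2* by 1.10 (adjusted p = 0.0048) on the log2 scale, the fourth member being *Mmp12*. For all 3 collagens nonDEN L-WD replicate 4 was the lowest of its group, and *Col1a1* overlapped between the groups. Without nonDEN L-CD replicate 2, *Col1a1* and *Col1a2* were no longer called, nor was *Col1a2* without nonDEN L-WD replicate 2. The activated stellate cell marker *Acta2* was not called, at 213, 128 and 209.6 on the control diet and 206, 159.9, 205 and 152 on the western diet (log2 fold change -0.02, SE 0.21, adjusted p = 0.96), and none of the 12 stellate markers was called.

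Many acute phase genes fell on the western diet, with a wide spread on the control diet. Of 25 tested, 15 were called lower, where 2.04% of all tested genes were, and 0 higher, and the median log2 fold change was -1.23 against 0.01 over all tested genes. The groups did not overlap for 7 of the 25, while 30.8% of all tested genes had groups that did not overlap. *Saa2*, serum amyloid A, had 984, 37056 and 48478 normalized counts in nonDEN L-CD and 544, 703, 974 and 1587 in nonDEN L-WD. Replicates 2 and 3 of the control diet stood far above the western diet range and replicate 1 inside it (log2 fold change -4.92, SE 0.99, adjusted p = 0.0013). *Saa2* shares 30.0% of its words with *Saa1*, which behaved alike at 3729, 50136 and 62567 on the control diet and 1204, 1524, 1669.6 and 4319.9 on the western diet (log2 fold change -4.16, SE 0.96, adjusted p = 0.0036). *Lcn2*, lipocalin, stood at 192, 4066 and 6028 on the control diet and 243, 418, 368 and 561 on the western diet, where control diet replicate 1 was below every western diet library (log2 fold change -3.11, SE 0.90, adjusted p = 0.015). The *Lcn2* call was lost without control diet replicate 3.

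*Steap4*, a metalloreductase, fell from 13363, 41284 and 39540.5 to 6747, 4286, 5861 and 8522 (log2 fold change -2.31, SE 0.31, adjusted p = 2.5e-05). *Socs3*, the feedback inhibitor of interleukin signalling, fell from 365, 1130.4 and 1236 to 67.3, 109.7, 133 and 163 (log2 fold change -2.95, SE 0.38, adjusted p = 1.6e-05), and *Stat3*, the transcription factor that carries the interleukin signal, from 5114, 6164 and 6544 to 2906, 1684, 2794 and 2710.2 (log2 fold change -1.24, SE 0.23, adjusted p = 0.00054). The groups did not overlap for these 3, and control diet replicate 1 was again the nearest to the western diet range. *Serpina3n*, a protease inhibitor, stood at 13145, 66863 and 69040.4 on the control diet and 8954, 4967, 8684 and 17889 on the western diet (log2 fold change -2.29, SE 0.48, adjusted p = 0.0018). *Hp*, haptoglobin, stood at 66479, 128834 and 134243 on the control diet and 45643, 36945, 48649.7 and 69219 on the western diet (log2 fold change -1.13, SE 0.26, adjusted p = 0.0035). For *Serpina3n* and *Hp* the lowest control diet library lay inside the western diet range, below nonDEN L-WD replicate 4. The fibrinogen chains *Fga*, *Fgb* and *Fgg*, among the most abundant transcripts of liver, had log2 fold changes of -1.25, -1.24 and -1.30 and were called. Without control diet replicate 3, *Hp* and *Fgb* were not called, and *Fgb* was also not called without control diet replicate 2. *Crp*, C-reactive protein, was lower in all 4 western diet libraries but stayed under the fold threshold (log2 fold change -0.78, SE 0.21, adjusted p = 0.0093).

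The number of acute phase calls depended on the libraries in the fit. It was 20 without nonDEN L-CD replicate 1, 11 without replicate 2 and 9 without replicate 3, and it was between 12 and 17 when a western diet library was left out. Without the 3 libraries with transcripts of other organs it was 10, when *Apcs*, *Lbp*, *Lcn2*, *Orm1* and *Saa1* were not called. With the replicate block it was 13, and *Apcs*, *Lcn2*, *Saa2* and *Serpina3n* were not called. Neutrophil markers moved with these genes. The 10 markers summed to 91.2, 284 and 399 normalized counts in nonDEN L-CD and to between 66.2 and 89.7 in nonDEN L-WD, and 4 of the 6 tested were called lower, against 2.04% of all tested genes. *S100a8* had 30.4, 90.8 and 123 counts on the control diet and 16.6, 18.0, 22.7 and 18.1 on the western diet (log2 fold change -2.10, SE 0.56, adjusted p = 0.0097), with separate groups, and the receptor *Cxcr2* had 8.19, 40.2 and 40.1 on the control diet and 8.78, 4.73, 9.28 and 10.7 on the western diet (log2 fold change -1.81, SE 0.46, adjusted p = 0.0071), with control diet replicate 1 inside the western diet range. Of the 4 called, only *Cxcr2* was still called without control diet replicate 3. The *Cxcr2* call was in turn lost without control diet replicate 2, with the 7 untreated libraries alone and with the replicate block. The defining surface marker *Ly6g* was at 0 in all 7 libraries, and *Camp* was at 0 in all 3 control diet libraries. *Cxcl1*, a neutrophil chemokine, fell from 958, 4358 and 5242 to 169.7, 79.5, 165 and 298 with separate groups (log2 fold change -4.31, SE 0.67, adjusted p = 0.00012). Without the 3 libraries with transcripts of other organs, none of the 4 neutrophil markers was called. The part of neutrophils in the acute phase result was not tested.

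Further genes were among the largest decreases. *Tifa* and *Alpk1*, which act together in sensing a bacterial sugar, fell from 1192, 4588 and 5157 to 465, 511, 365 and 466 (log2 fold change -3.01, SE 0.37, adjusted p = 1.0e-05) and from 149.7, 654 and 805 to 77.0, 79.5, 61.8 and 77.8 (log2 fold change -2.85, SE 0.41, adjusted p = 4.7e-05). *Scara5*, a ferritin receptor, fell from 930.0, 1889 and 2407 to 343, 139, 142 and 170.5 (log2 fold change -3.13, SE 0.87, adjusted p = 0.012). *Syt12*, a synaptotagmin gene, fell from 60.8, 501 and 853 to 36.1, 51.1, 34.0 and 51.1 (log2 fold change -3.45, SE 0.52, adjusted p = 7.5e-05), and *Btg3*, an antiproliferative factor that overlaps *Cxadr* on the opposite strand, from 87.7, 445 and 414 to 0, 23.6, 23.7 and 73.5 (log2 fold change -3.40, SE 0.60, adjusted p = 0.0004). In each of these 5 genes replicate 1 was the lowest control diet library and still lay above all western diet libraries. *Adcy1*, *Tmc5* and *Gm10309* fell by 4.25, 4.09 and 5.64 on the log2 scale from at most 328 normalized counts. *Ttll8*, a tubulin-modifying enzyme, fell from 101, 122 and 148 to 14.6, 11.3, 3.09 and 18.1 with a narrow control diet group (log2 fold change -3.37, SE 0.50, adjusted p = 7.4e-05). *Gtpbp4-ps1*, a pseudogene that shares 83.0% of its words with related copies, fell from 485, 844 and 689.6 to 94.6, 86.1, 53.6 and 68.2 and is uncertain as a locus.

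Promoters of 2 called acute phase genes are shown because STAT3 acts through a palindrome that can be looked for by its letters, TTCCNGGAA, on both strands. This motif was found in the 250 bases before the start of 2 of the 22 acute phase genes with an entry, *Fga* and *Steap4*, and of 1.09% of 27025 genes with an entry. The sequences are from RefSeq on GRCm38.p6, 5′ to 3′ on the strand of the gene, with the motif in capitals: *Fga* at chr3:83025903-83026152 (plus strand) and *Steap4* at chr5:7960222-7960471 (plus strand).
Fga: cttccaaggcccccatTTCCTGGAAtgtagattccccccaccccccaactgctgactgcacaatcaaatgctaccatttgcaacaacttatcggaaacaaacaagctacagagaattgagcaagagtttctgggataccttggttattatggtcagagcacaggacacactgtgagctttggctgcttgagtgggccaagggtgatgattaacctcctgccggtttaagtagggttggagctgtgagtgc
Steap4: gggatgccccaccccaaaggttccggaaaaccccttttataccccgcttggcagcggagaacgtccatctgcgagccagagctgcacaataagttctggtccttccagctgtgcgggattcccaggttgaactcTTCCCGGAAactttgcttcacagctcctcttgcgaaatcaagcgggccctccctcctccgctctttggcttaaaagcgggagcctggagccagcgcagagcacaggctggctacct
Their normalized counts fell by 1.25 and 2.31 on the log2 scale. The match is a description of letters, and the remaining members with an entry hold no such letters in this window.

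The metallothioneins were among the genes that fell furthest, and *Mt2* had the largest decrease of the called genes with a group mean of at least 100 normalized counts and no overlap. *Mt2* went from 1004, 19673 and 19946 in nonDEN L-CD to 235, 55.8, 189.6 and 315 in nonDEN L-WD (log2 fold change -6.09, SE 1.18, adjusted p = 0.00093). *Mt1* went from 1723, 22319 and 22534 to 592, 142, 438 and 1683 (log2 fold change -4.44, SE 0.98, adjusted p = 0.0026). In both genes replicates 2 and 3 of the control diet were alike and more than an order of magnitude above replicate 1, which for *Mt1* lay just above nonDEN L-WD replicate 4. Both calls held in all 7 fits with a library left out, while that of *Mt1* was lost with the replicate number as a block. *Mt1* lies on chromosome 8 from 94179082 to 94180327, next to *Mt2* at 94172664 to 94173568, and 45.8% of the words of *Mt2* occur in *Gm45774*, an overlapping gene on the opposite strand. In TPM, which corrects for length and so allows levels of different genes to be compared, the authors' values averaged 1427 ± 1124 for *Mt1* and 1509 ± 1213 for *Mt2* in nonDEN L-CD, and 62.5 ± 54.0 and 23.4 ± 11.4 in nonDEN L-WD (mean ± SD, n = 3 and n = 4).

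Some metal transporters fell as well. Of 9 tested members of the metallothionein and zinc transporter list, 5 were lower and 0 higher, where 2.04% of all tested genes were lower, with a median log2 fold change of -1.24 and a range that reached 1.46 in a member that was not called. With the replicate block 3 were called, without *Mt1* and *Slc39a10*, and without the 3 libraries with transcripts of other organs 4, without *Slc39a10*. *Slc30a10*, an exporter of manganese, fell from 1629.5, 2004 and 1802 to 684, 795, 768 and 822 (log2 fold change -1.24, SE 0.23, adjusted p = 0.00074), with all 3 control diet libraries close together. *Slc39a14*, which imports zinc and iron, fell from 9014, 15948 and 17254 to 6008, 4906, 5372 and 7067 (log2 fold change -1.27, SE 0.24, adjusted p = 0.0009). *Slc39a10* stood at 172, 579.6 and 591 on the control diet and 181, 205, 191 and 170.5 on the western diet, with control diet replicate 1 inside the western diet range (log2 fold change -1.26, SE 0.25, adjusted p = 0.0011). *Slc30a1*, a zinc exporter, was not called, at 1751, 959 and 989 on the control diet and 998, 987, 932 and 950.3 on the western diet.

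The metal response element is shown here because the zinc-sensing factor MTF1 binds it in metallothionein promoters. Its core was searched as TGCACNC or TGCGCNC on both strands, where matches may overlap, in the 250 bases before each gene start. It was found in 5 of the 8 list members with an entry and in 23.8% of all genes with an entry, and 3 or more matches, as in *Mt2* and *Slc30a10*, were found in 1.46% of all genes. The sequences are from RefSeq on GRCm38.p6, 5′ to 3′ on the strand of the gene, with matches in capitals: *Mt2* at chr8:94172368-94172617 (plus strand), *Mt1* at chr8:94178839-94179088 (plus strand) and *Slc30a10* at chr1:185454598-185454847 (plus strand).
Mt2: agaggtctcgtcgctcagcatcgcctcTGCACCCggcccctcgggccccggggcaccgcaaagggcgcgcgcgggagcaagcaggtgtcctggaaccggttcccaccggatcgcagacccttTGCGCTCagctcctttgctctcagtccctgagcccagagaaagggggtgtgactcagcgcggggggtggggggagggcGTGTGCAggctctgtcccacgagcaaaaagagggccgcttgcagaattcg
Mt1: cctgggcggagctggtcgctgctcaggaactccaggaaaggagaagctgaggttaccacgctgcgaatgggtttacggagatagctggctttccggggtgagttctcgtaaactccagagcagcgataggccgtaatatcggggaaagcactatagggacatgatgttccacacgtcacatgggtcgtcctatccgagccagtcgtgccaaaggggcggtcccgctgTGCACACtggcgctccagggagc
Slc30a10: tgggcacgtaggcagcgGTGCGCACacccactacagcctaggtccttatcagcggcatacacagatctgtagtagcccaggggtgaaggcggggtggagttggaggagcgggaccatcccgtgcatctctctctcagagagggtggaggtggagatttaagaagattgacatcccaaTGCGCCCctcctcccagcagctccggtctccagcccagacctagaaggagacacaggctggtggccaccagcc
The window of *Mt2* held 3 matches, that of *Mt1* 1 and that of *Slc30a10* 3, of which a pair overlap on opposite strands. Each count depends on the 1 RefSeq start used for the gene. Sequence after that start was not searched, so these are not counts for a whole promoter. The log2 fold changes of the same genes were -6.09, -4.44 and -1.24. The other members with a match, *Slc30a1* and *Slc39a5*, had 1 each and were not called, at -0.35 and 1.46, while the called *Slc39a10* had 0.

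Some chaperone genes of the endoplasmic reticulum fell on the western diet. In the list of the unfolded protein and integrated stress response, 8 of 22 were called lower, against 2.04% of all tested genes, 0 higher and 14 not called, with a median log2 fold change of -0.76. The 8 became 5 without nonDEN L-CD replicate 2 or nonDEN L-WD replicate 3, when *Hspa5*, *Manf* and *Pdia4* were not called. *Creld2*, a secreted ER stress protein, fell from 3343, 6581 and 4297 to 463, 599.7, 385 and 1581 (log2 fold change -2.65, SE 0.37, adjusted p = 4.0e-05). *Hsp90b1*, the chaperone GRP94, fell from 54899, 81826 and 72212 to 24614, 26996, 24839.7 and 36784 (log2 fold change -1.30, SE 0.24, adjusted p = 0.00052). *Hyou1* and *Sdf2l1*, which assist in folding, fell from 9689, 17742 and 10003 to 3313, 4328, 2948 and 6728 (log2 fold change -1.53, SE 0.33, adjusted p = 0.0023) and from 1442, 2310.2 and 1165 to 451, 618, 418 and 774 (log2 fold change -1.54, SE 0.33, adjusted p = 0.0023). The groups did not overlap in these genes, control diet replicate 2 was the highest in each, and nonDEN L-WD replicate 4 the highest of the western diet libraries.

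*Hspa5*, the central chaperone BiP, had 35363, 85950.5 and 47877 counts on the control diet and 17325, 19778, 15956 and 37664 on the western diet, so that nonDEN L-WD replicate 4 lay above control diet replicate 1 (log2 fold change -1.31, SE 0.38, adjusted p = 0.014). It was not called without nonDEN L-CD replicate 2 or nonDEN L-WD replicate 3. *Pdia4*, a disulfide isomerase, fell by 1.05 on the log2 scale (adjusted p = 0.0021), and *Manf*, a secreted ER protein, by 1.25 (adjusted p = 0.016). Neither was called without nonDEN L-CD replicate 2, nonDEN L-WD replicate 1 or nonDEN L-WD replicate 3. *Asns*, asparagine synthetase, a target of the amino acid branch of the response, fell from 242, 286 and 289 to 38, 40.7, 11.3 and 62.9 (log2 fold change -2.83, SE 0.57, adjusted p = 0.0012), and here the 3 control diet values were close. The stress transcription factors did not move alike: *Xbp1* lay below its control diet range without passing the fold threshold (log2 fold change -0.97, SE 0.20, adjusted p = 0.0016) and was called without nonDEN L-CD replicate 1 at -1.19 or nonDEN L-WD replicate 2 at -1.10, while *Atf4* and *Ddit3* were not called, at -0.09 and 0.48.

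The ER stress response element is shown because it joins a pair of boxes at a fixed distance. It was searched as CCAAT, 9 bases of any kind and CCACG, on both strands, in the same window. It was found in 6 of the 20 list members with an entry, or 30.0%, and in 35 of all 27025 genes, or 0.13%. The list was drawn up from known targets of this response, so the difference describes the list. The sequences are from RefSeq on GRCm38.p6, 5′ to 3′ on the strand of the gene, with matches in capitals: *Hspa5* at chr2:34771840-34772089 (plus strand), *Hsp90b1* at chr10:86705445-86705694 (minus strand) and *Creld2* at chr15:88819396-88819645 (plus strand).
Hspa5: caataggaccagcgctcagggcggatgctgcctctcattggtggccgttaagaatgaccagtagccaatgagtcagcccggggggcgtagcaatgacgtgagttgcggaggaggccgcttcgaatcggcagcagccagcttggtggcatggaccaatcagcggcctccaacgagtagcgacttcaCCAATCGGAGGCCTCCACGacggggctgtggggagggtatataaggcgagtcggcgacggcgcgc
Hsp90b1: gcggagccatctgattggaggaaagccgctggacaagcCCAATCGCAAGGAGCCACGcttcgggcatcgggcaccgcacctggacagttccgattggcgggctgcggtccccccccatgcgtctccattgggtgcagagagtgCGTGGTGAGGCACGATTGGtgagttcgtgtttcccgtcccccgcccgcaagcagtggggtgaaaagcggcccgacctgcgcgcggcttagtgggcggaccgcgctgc
Creld2: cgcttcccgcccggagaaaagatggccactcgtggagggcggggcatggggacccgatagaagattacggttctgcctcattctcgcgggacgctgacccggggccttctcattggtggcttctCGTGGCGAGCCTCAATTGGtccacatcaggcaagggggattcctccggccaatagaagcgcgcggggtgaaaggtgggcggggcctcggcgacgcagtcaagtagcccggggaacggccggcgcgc
These 3 were called lower, with log2 fold changes of -1.31, -1.30 and -2.65. The other members with the element, *Calr*, *Dnajc3* and *Pdia6*, were not called, at -0.63, -0.89 and -0.97, while the called *Sdf2l1*, *Pdia4* and *Asns* held no match in this window.

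A pair of cytosolic heat shock genes had narrow control diet values. *Hspb1*, a small heat shock protein, fell from 2391, 2131 and 2581 to 506, 744, 507 and 441 (log2 fold change -2.11, SE 0.31, adjusted p = 5.8e-05), and *Hsp90aa1*, the inducible cytosolic HSP90, from 24939, 26284 and 28386 to 9150.0, 9478, 8409 and 11418 (log2 fold change -1.47, SE 0.20, adjusted p = 2.8e-05). These were the 2 of 10 list members that were called, where 2.04% of all tested genes were lower. Their groups were far apart, and the list median was -0.32. Related copies, among them *Hsp25-ps1*, hold 50.1% of the words of *Hspb1*, and others hold 47.5% of those of *Hsp90aa1*.

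Glucocorticoid-responsive and clock genes were also among those that changed. *Fkbp5*, a sensitive target of the glucocorticoid receptor, fell from 1954, 3359 and 4551 to 815, 754, 806 and 964 (log2 fold change -1.98, SE 0.35, adjusted p = 0.00042), and with *Lpin1* and *Zbtb16* made 3 lower and 0 higher of 15, where 2.04% of all tested genes were lower and 3.24% higher. *Lpin1* was no longer called without nonDEN L-CD replicate 2, and *Zbtb16* was called in 2 of the 7 fits with a library left out. Of 20 clock genes, *Arntl* (-1.88) and *Nfil3* (-1.65) were lower and *Per3* (1.18) and *Usp2* (1.24) higher on the log2 scale, to be read against the same 2 shares. *Nfil3*, a repressor in the clock output, fell from 812, 1286 and 1289.9 to 382, 409.6, 316 and 329 (log2 fold change -1.65, SE 0.20, adjusted p = 1.0e-05). *Per3* went from 399, 147 and 249 to 657, 638, 633 and 472 (log2 fold change 1.18, SE 0.27, adjusted p = 0.0035), and without nonDEN L-CD replicate 2 neither *Per3* nor *Usp2* was called. The core repressor *Nr1d1* had a log2 fold change of 0.01 (adjusted p = 0.98).

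Single members changed in other lists. *Gstp1*, a glutathione transferase with 33.7% of its words in related genes, fell from 33238, 33829 and 32888 to 13874, 19925, 15488 and 13996 (log2 fold change -1.07, SE 0.24, adjusted p = 0.0031), a call lost without the 3 libraries with transcripts of other organs. *Psph*, which completes serine synthesis, fell from 184, 314 and 339 to between 88.8 and 104 (log2 fold change -1.49, SE 0.20, adjusted p = 2.5e-05). *Cdkn1a*, a target of p53, stood at 91.2, 997 and 535 on the control diet and 95.6, 103, 162 and 174 on the western diet, where control diet replicate 1 was below every western diet library (log2 fold change -2.02, SE 0.49, adjusted p = 0.0053). That call was lost without control diet replicate 2, without the 3 libraries, with the 7 untreated libraries alone and with the replicate block. *Usp18*, an interferon-induced regulator, rose from 98.3, 89.7 and 131 to 216, 212, 247 and 355 (log2 fold change 1.27, SE 0.23, adjusted p = 0.00059). *Ciita*, the regulator of class II antigen presentation, rose from 23.4, 16.1 and 22.9 to 62.4, 55.8, 57.7 and 44.7 (log2 fold change 1.40, SE 0.33, adjusted p = 0.0044). *Nqo1*, a quinone reductase, had separate groups at 71.4, 102 and 74.5 on the control diet and 255, 252, 257 and 175 on the western diet but was not called (log2 fold change 1.5, SE 0.57, adjusted p = 0.061).

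The remaining lists held few changes, and their counts are to be read against the 3.24% of all tested genes that were higher and the 2.04% that were lower. Among 19 inflammation genes, *Cxcl1*, *Cd14* and *Icam1* were lower and 0 higher. *Cd14*, a receptor for endotoxin, and *Icam1*, an adhesion molecule, fell by 1.03 (adjusted p = 0.024) and 1.08 (adjusted p = 9.3e-05) on the log2 scale with separate groups, and neither was called without control diet replicate 3. *Cd14* was also not called without nonDEN L-WD replicate 1 or 3, nor *Icam1* without nonDEN L-WD replicate 4 or with the replicate block. Among 9 B cell and plasma cell markers, *Pax5*, the B cell transcription factor, rose from 3.51, 1.15 and 2.29 to 16.6, 9.46, 25.8 and 16.0 (log2 fold change 2.81, SE 0.49, adjusted p = 0.00038), and *Cd79a*, part of the B cell receptor, by 1.66 (adjusted p = 0.021), a call lost without nonDEN L-CD replicate 2 or nonDEN L-WD replicate 3. Among 23 cell cycle genes, where 2 were called against 3.24% of all tested genes higher, *Mcm5* and *Ccne2*, which act at the start of DNA replication, rose by 1.21 (adjusted p = 0.0052) and 1.17 (adjusted p = 0.00057). The *Mcm5* call was lost without nonDEN L-WD replicate 3 and the *Ccne2* call without nonDEN L-CD replicate 3. In the female-biased list, *Cyp2a4* and *Hao2* were called of 16, and *Hao2* had 306 counts in the library with kidney transcripts and at most 27.4 in the others. The lists of glycolysis, immediate early genes and bile duct cells had 1 called member each, namely *Hk2* (higher), *Junb* (lower) and *Sox9* (lower). The *Hk2* call was lost without nonDEN L-CD replicate 2 or 3, without nonDEN L-WD replicate 2 or 3 and with the 7 untreated libraries alone, and those of *Junb* and *Sox9* without the 3 libraries with transcripts of other organs.

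No member was called in the lists of lipoproteins (18 tested), gluconeogenesis and fasting (14), the growth hormone and IGF1 axis (14), the urea cycle and amino acid breakdown (23), iron (14), natural killer cells (8), mitochondrially encoded genes (13), endothelium (11) and red blood cells (5). *Pck1* and *G6pc*, of gluconeogenesis, had log2 fold changes of -0.28 (adjusted p = 0.46) and 0.47 (adjusted p = 0.38), and *Igf1* of -0.07 (adjusted p = 0.83). The 5 red blood cell markers summed to 13948, 10629.8 and 13426 normalized counts in nonDEN L-CD and 18779.8, 20777, 20403 and 22547 in nonDEN L-WD. All 5 had log2 fold changes above 0, with a median of 0.84, and for 4 of the 5 the groups did not overlap, against 30.8% of all tested genes. Their part in other results was not tested. These values do not show that the lists were equal between the diets.

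**Figure D4:**
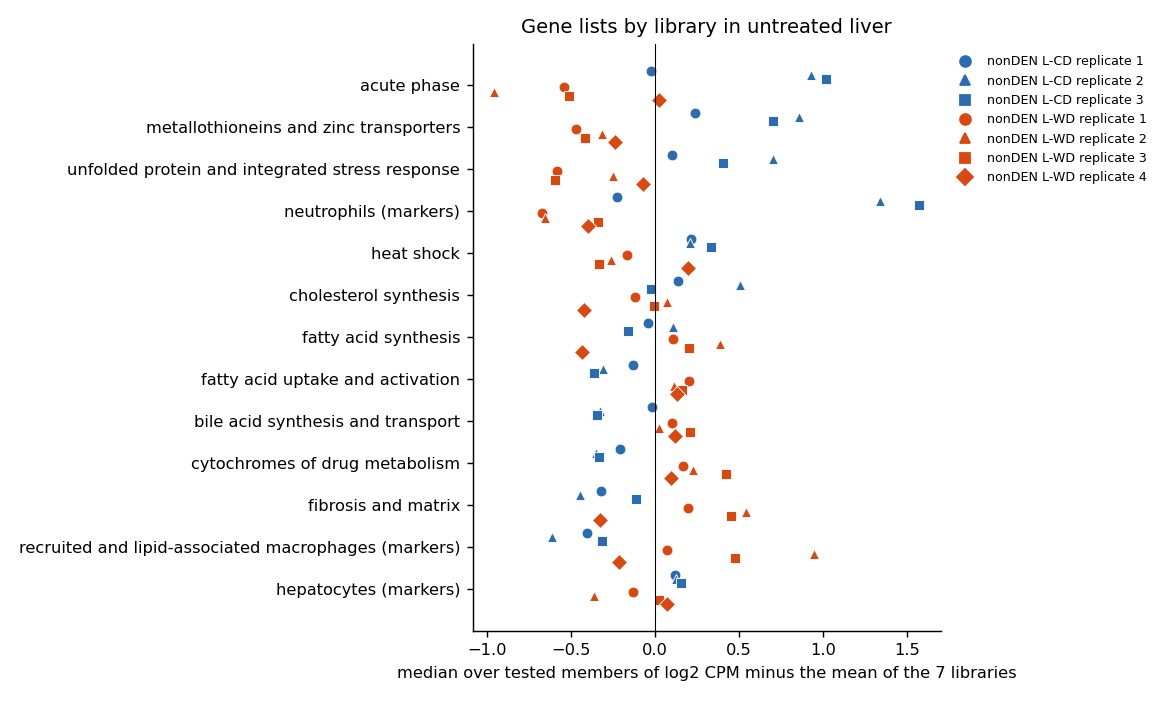
For 13 gene lists (rows), the median over tested members of log2 CPM in a library minus the mean of the 7 libraries (horizontal axis), with nonDEN L-CD in blue, nonDEN L-WD in orange and the marker shape giving the replicate. In the acute phase list, control diet replicates 2 and 3 lie at 0.93 and 1.02 and replicate 1 at -0.03, within the western diet values of -0.96 to 0.02. In fatty acid uptake all 3 control diet libraries lie below all 4 western diet libraries.

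The widest spread within the control diet group belonged to pancreatic genes. All 15 genes with the largest standard deviation in nonDEN L-CD, among those with a mean of at least 100 normalized counts, encode digestive enzymes of the pancreas. They comprised *Amy2a1* to *Amy2a5*, *Cpb1*, *Ctrb1*, *Cpa1*, *2210010C04Rik*, *Prss2*, *Cel*, *Pnlip*, *Cela2a*, *Try4* and *Pnliprp1*. The amylase copies share between 53.5% and 100% of their words and cannot be told apart. *Cpb1*, carboxypeptidase B, had 3846, 0 and 1752 counts in nonDEN L-CD and 3188, 87.0, 478 and 6582 in nonDEN L-WD, and was not called (log2 fold change 0.47, SE 2.27, adjusted p = 0.91).

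The other groups of the series place the control diet libraries in context. DEN L-CD holds 4 livers of DEN-injected mice on the control diet, and DEN PT-WD holds 8 samples of peritumoral liver from DEN-injected mice on the western diet. The diet contrast of these injected groups called 297 genes (1.90% of those tested), 238 higher and 59 lower. It shares no library with the untreated contrast, and it also sets peritumoral liver against liver. Genes called in the same direction in both numbered 58, which is 7.03% of the untreated list and 19.5% of the injected list, and 50 of them were higher. A further 6 were called in opposite directions.

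The difference of the diet effect between injected and untreated liver was itself tested, and it was called for 430 genes (2.75%), and for 232 without nonDEN L-CD replicate 2 and 258 without nonDEN L-CD replicate 3. *Cyp7a1* stood at 5914, 7106, 9534 and 6309 in the 4 DEN L-CD libraries, inside the range of nonDEN L-WD, and at 5402, 10055 and 18678 (lowest, median and highest) in DEN PT-WD. Its diet effect in injected liver was 0.47 on the log2 scale, and the difference from untreated liver was -3.39 (adjusted p = 0.00054). *Osbpl3* and *Themis* had 528, 886, 749 and 597 and 425, 366, 202 and 321 counts in DEN L-CD, and their diet effects in injected liver were 1.05 and 1.07. *Tifa* had 581, 436, 398 and 426 counts in DEN L-CD, *Hspb1* had 428, 337, 569 and 491 and *Mt1* had 1597, 293, 246 and 503, all below the nonDEN L-CD values. In each of these genes the mean of DEN L-CD was nearer to that of nonDEN L-WD than to that of nonDEN L-CD.

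The cholesterol synthesis genes *Idi1* and *Sqle* differed from that pattern. *Idi1* had 3469, 4115, 6973 and 4232 counts in DEN L-CD, within or above the range of nonDEN L-CD, and fell in DEN PT-WD to 1144, 1491 and 2434. Its diet effect in injected liver was -1.58 on the log2 scale (adjusted p = 0.00029), and the difference between the 2 effects was 0.12 (adjusted p = 0.86), so the difference was not called. *Sqle* stood at 685, 966, 1766 and 1290.4 in DEN L-CD and 202, 579 and 1282 in DEN PT-WD, with an effect of -0.86 (adjusted p = 0.22). *Gstp1* stood at 20810.0, 19672, 29895 and 27633 in DEN L-CD and 10148, 11862 and 21854 in DEN PT-WD, with an effect of -0.90 (adjusted p = 0.0058), and its DEN L-CD mean lay about midway between the untreated groups. *Cd36* and *Abcg5* had diet effects of 0.93 (adjusted p = 0.046) and 0.98 (adjusted p = 0.0005) in injected liver, just under the fold threshold.

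Over the called genes, the DEN L-CD mean lay nearer to nonDEN L-WD than to nonDEN L-CD for 410 of the 506 genes that were higher, or 81.0%, and for 275 of the 319 that were lower, or 86.2%, on the log2 scale. Over all tested genes the share was 68.7%. The called genes were chosen by the difference between the untreated groups, so their shares are a description. Between nonDEN L-WD and DEN L-CD, which differ in both diet and DEN, 39 genes (0.250%) were called, 9 higher and 30 lower in nonDEN L-WD. This contrast shares its nonDEN L-WD libraries with the diet contrast. With 1 set of 3 libraries for untreated mice on the control diet, the effect of diet and what else set these 3 apart cannot be told apart from the 7 libraries alone.

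**Figure D5:**
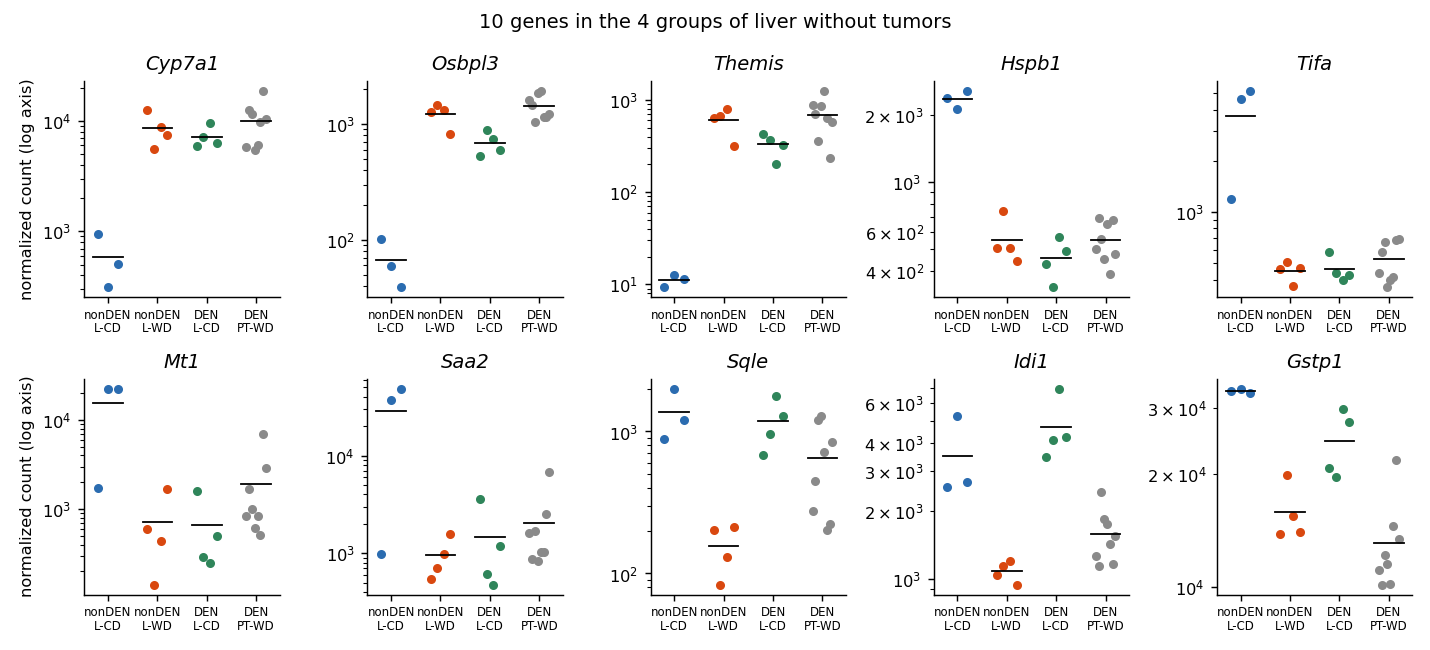
Normalized counts (vertical log axis) of 10 genes in nonDEN L-CD (3 libraries), nonDEN L-WD (4), DEN L-CD (4) and DEN PT-WD (8), each point a library and the line the group mean. DEN L-CD lies nearer to nonDEN L-WD for *Cyp7a1*, *Tifa*, *Hspb1* and *Saa2*, and nearer to nonDEN L-CD for *Sqle* and *Idi1*.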

How the data were processed

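RNA from pulverized frozen liver was made into poly(A)-selected libraries and sequenced from a single end. Per the labels and methods, the authors checked reads with FastQC, aligned them with STAR to GRCm38 and deposited RSEM expected counts and TPM per gene for each library. The annotation release and the use of strand are not given in the sources used here. Gene names were matched to 48349 of 48795 identifiers.

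Groups were taken from the labels. Expected counts were rounded to whole numbers, genes with too few counts were removed (filterByExpr, minimum count 10), and all 25 libraries in 5 groups were scaled by TMM and fitted with the quasi-likelihood test of edgeR 4.0.16 in R 4.3.3. Genes were called at a Benjamini-Hochberg adjusted p up to 0.05 with a log2 fold change of 1 or more in size. A standard error is the absolute log2 fold change divided by the square root of F. Log2 CPM used a prior count of 2, and a group at 0 was set to a floor of 3 counts per library for a fold. Depth was 26570081 to 31120744 expected counts per nonDEN library. Scripts were tested on simulated counts. Alternatives used DESeq2 1.42.0, voom with quality weights in limma 3.58.1, other filters and single libraries left out.

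The genes named were the 15 largest increases and 15 largest decreases among called genes with a higher group mean of at least 100 normalized counts and no overlap, up to 6 called members of each of 46 lists, members that define a list, and the 15 genes with the largest spread in nonDEN L-CD. Further genes, such as *Acsm2*, *Apcs*, *Calr*, *Cyp2a5*, *Dnajc3*, *Fabp5*, *Fga*, *Fgb*, *Fgg*, *Hspa5*, *Lbp*, *Lcn2*, *Manf*, *Orm1*, *Pdia6*, *Saa1* and *Slc39a5*, were named after their values were seen. The comparison and the lists were chosen with earlier results of these data known, and the lists of kidney, stomach and intestine genes, the fit without the 3 libraries with most of their transcripts, and the single-library exclusions for the difference between diet effects were added after the data were seen. Replicate numbers were not treated as pairs, since the labels tie them to nothing shared. Shared sequence is the percentage of the 50-base words of a gene's transcripts that also occur in other genes. Promoters are the 250 bases before the RefSeq gene start on GRCm38.p6, given for 27025 genes.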

Additional observations from a re-analysis of the deposited data

Results flagged for a closer look

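Among 140 genes examined, 15 had a single nonDEN L-WD library apart from the other 3 by Dixon's criterion at 95% for groups of 4, a criterion that chance meets in about 1 in 20 groups. Groups of 3, and so nonDEN L-CD, were not examined in this way. In nonDEN L-WD replicate 1 these were *Acsm2* at 3632, *Cyp2a4* at 420.4, *Dnase1* at 777, *Gcnt1* at 642, *Scara5* at 343 and *Hao2* at 306 normalized counts. In nonDEN L-WD replicate 2 it was *Stat3* at 1684 normalized counts. In nonDEN L-WD replicate 3 it was *Alpk1* at 61.8 normalized counts. In nonDEN L-WD replicate 4 these were *Vldlr* at 71.4, *Srebf1* at 3042, *Saa1* at 4319.9, *Crp* at 11675, *Ddit3* at 198, *Per3* at 472 and *Nqo1* at 175 normalized counts. *Acsm2*, *Cyp2a4*, *Dnase1*, *Gcnt1* and *Hao2* stood apart in the library that held kidney transcripts, and none of the 5 was called without it. *Acsm2*, *Cyp2a4*, *Dnase1* and *Hao2* were also not called when any single control diet library was left out. The part of kidney transcripts in these values was not tested further.

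The diet effect differed between DEN-injected and untreated liver, by the test of the difference, in 49 of the 140 genes. Over all tested genes the share was 2.75%, or 430 genes, and 232 and 258 genes without nonDEN L-CD replicate 2 or 3. Most of the 140 were named for their diet effect in the untreated libraries that also enter this difference, so the count describes that choice. Values are log2 differences, injected minus untreated. Among lipid and bile acid genes, the difference was -3.39 for *Cyp7a1*, -1.17 for *Cyp8b1*, -1.20 for *Ces1d*, -1.13 for *Acsm5*, 1.09 for *Acsl4*, -4.86 for *Cidea*, -6.37 for *B430212C06Rik*, -2.90 for *Mogat1*, -1.24 for *Fitm1*, -1.80 for *Srebf1*, -1.06 for *Aldh3a2* and -3.14 for *Osbpl3*. Among acute phase genes, chemokines and innate receptors, the difference was 5.4 for *Saa2*, 4.88 for *Saa1*, 4.88 for *Lcn2*, 2.07 for *Steap4*, 2.48 for *Socs3*, 2.29 for *Serpina3n*, 1.42 for *Hp*, 3.80 for *Cxcl1*, 3.22 for *Tifa*, 3.34 for *Alpk1*, 1.73 for *Cd14* and 1.87 for *Icam1*. Among metallothioneins, zinc transporters and stress genes, the difference was 8.49 for *Mt2*, 5.99 for *Mt1*, 1.12 for *Slc39a10*, 2.14 for *Creld2*, 2.99 for *Asns*, 2.37 for *Hspb1*, 1.14 for *Hsp90aa1*, 3.03 for *Cdkn1a* and 1.30 for *Psph*. Among glucocorticoid and clock genes, the difference was 2.40 for *Fkbp5*, 2.35 for *Arntl*, 1.40 for *Nfil3* and -1.29 for *Usp2*. For the remaining genes it was -3.60 for *Esrrg*, -4.09 for *Lrtm1*, -2.43 for *Adgrv1*, -4.68 for *Themis*, 3.97 for *Syt12*, 3.50 for *Btg3*, 5.59 for *Adcy1*, 6.87 for *Tmc5*, 4.86 for *Gm10309*, 2.88 for *Ttll8*, -2.90 for *Pax5* and -1.20 for *Ccne2*.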

How the results depend on the processing

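The number of genes that differed by diet was 823 with DESeq2 size factors, 856 with the DESeq2 test, 785 without the filter on low counts, 686 with the 7 libraries alone and 977 with voom and quality weights. Without a minimum fold change it was 3626. With single libraries left out, it ranged from 507 to 959 in all, from 285 to 630 for genes higher on the western diet and from 222 to 380 for genes lower, with the lowest values without nonDEN L-CD replicate 2. Without the 3 libraries with transcripts of other organs, an alternative chosen after the data were seen, 206 genes were lower. Non-overlapping called genes numbered from 482 to 897 when a control diet library was left out. The difference of the diet effect between injected and untreated liver was called for 232 to 600 genes when a library was left out, again chosen after the data were seen.

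With the replicate block, 747 genes were called, of which 557 were among the 825. Only nonDEN L-WD has a replicate 4, so in this fit that library adds nothing to the diet contrast. The labels do not say that a number marks a pair, and across genes the deviations of same-numbered libraries correlated at 0.13, 0.39 and -0.11. Replicate 3 of nonDEN L-CD correlated best with nonDEN L-WD replicate 4, not with its own number, while replicates 1 and 2 correlated best with their own.

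Of 116 called genes named in the text or by the rule, 58 were called in all 14 alternatives, 85 without nonDEN L-CD replicate 2, 82 without the 3 libraries and 96 with the block. Over all 825 called genes, 261 were called in all 14 alternatives. Many of the named genes were picked for a large change without overlap or a low adjusted p, so their share describes that choice. *Acsm2* turned negative: its log2 fold change ranged from -1.21 without nonDEN L-WD replicate 1 to 6.13 when single libraries were left out, and was -1.55 without the 3 libraries. *Nqo1* was called by DESeq2, by voom, with the 7 libraries alone and with the block. Each group holds 3 or 4 libraries, which limits the precision of every value.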
